A study of Homo sapiens with 26 samples.

Results

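H3K27ac, the acetylation of histone H3 at lysine 27, was mapped by ChIP-seq before and 1 h after activation of p53 in the RAD21 line. The line derives from HCT116, human colorectal cancer cells whose p53 gene is intact. The peak lists of its 4 libraries, out of 16 peak lists and 26 samples in the series, were chosen by their cell line, mark and time point. The 0 h libraries (n = 2) came from cells given the vehicle DMSO, and the 1 h libraries (n = 2) from cells given Nutlin-3a for 1 h. According to the study's methods, every RAD21 allele of the line is fused to an auxin-inducible degron, and an auxin analogue was added to degrade RAD21 ahead of Nutlin-3a. The study describes its libraries of this line at both times as the RAD21 knockdown, and the peak names of all 4 lists carry the letters KD, but no label mentions the analogue. The line is a single engineered derivative, so what is particular to the line and what to RAD21 loss cannot be told apart in these lists. The lists of the parental line (WT) were used only where they are named, and the 10 input libraries were not analysed here. The question was which H3K27ac regions were gained, lost or moved in rank within 1 h, and at which genes.

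Acetylation at H3K27 marks active promoters and enhancers, and distal sites that carry it together with H3K4me1 (monomethylation of histone H3 at lysine 4) are classed as active enhancers. Nutlin-3a occupies the pocket of HDM2 that binds p53, which frees p53 to bind its response elements and switch on genes of growth arrest, apoptosis and DNA repair. Cohesin, the ring complex that contains RAD21, extrudes chromatin loops that bring enhancers and promoters together and that stop at sites bound by CTCF. The epithelial identity of the line was checked on promoters of marker genes. In each of the 4 lists 10 of 16 intestinal epithelial markers had a promoter peak, and CDH17, CDX1, HNF4A, KRT20, LGALS4 and VIL1 had none. None of 15 markers of blood, liver, pancreas, heart, nerve, endothelial and stromal cells had one in any list.

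The sequences below, read from GRCh37 on the forward strand, are examples of motif matches in regions described below. Their part in the changes was not tested. The ATF4 composite element TGATGCAA, which reads TTGCATCA on the other strand, recurred at promoters and distal regions that moved down in rank. It was found in 7.99% of promoter regions that moved down and in 5.00% of the other promoter regions tested. ATF4 is the transcription factor that drives the response to amino acid shortage. It is shown in capitals in regions over the promoters of CHAC1 (chr15:41245449-41245478), PSAT1 (chr9:80912297-80912326), SESN2 (chr1:28586570-28586599) and TRIB3 (chr20:361591-361620). It is also shown within LONRF2 (chr2:100908723-100908850) and in the intergenic region near DNASE2B (chr1:84898366-84898493). The element lies 209 bp upstream of the nearest start of CHAC1, and 249, 552 and 198 bp downstream of that of PSAT1, SESN2 and TRIB3. It lies 85 to 939 bp from the strongest summit of its region, and only at PSAT1 (85 bp) inside the 300 bp windows counted below.
CHAC1: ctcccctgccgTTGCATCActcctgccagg
PSAT1: ccctaggcgctTTGCATCAgcgtgcacagc
SESN2: cgggacccgggTTGCATCAactggcagccg
TRIB3: ttagctccggtTTGCATCAcccggaccggg
region near LONRF2: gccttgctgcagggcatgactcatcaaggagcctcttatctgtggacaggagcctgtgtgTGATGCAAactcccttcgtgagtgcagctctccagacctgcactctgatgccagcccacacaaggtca
region near DNASE2B: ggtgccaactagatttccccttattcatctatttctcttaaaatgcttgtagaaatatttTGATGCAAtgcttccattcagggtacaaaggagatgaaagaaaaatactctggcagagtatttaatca

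At regions gained after 1 h the AP-1 site TGANTCA, bound by FOS and JUN dimers, lay near the summit more often than at regions lost. Its match nearest to the strongest summit is in capitals for the region in an intron of MYO6 (chr6:76462174-76462300), the intergenic region near EPO (chr7:100323486-100323612) and the exonic region within ST3GAL3, near ARTN (chr1:44387644-44387672). These are leading gained regions, and their matches lie 1403, 228 and 240 bp from the summit, outside the 300 bp windows counted below. A match to the p53 response element at the start of DDB2 (chr11:47236526-47236554) is shown because this p53 target moved up. The windows at CHAC1, TRIB3, DDB2 and near ARTN overlap an annotated exon and the others do not.
region near MYO6: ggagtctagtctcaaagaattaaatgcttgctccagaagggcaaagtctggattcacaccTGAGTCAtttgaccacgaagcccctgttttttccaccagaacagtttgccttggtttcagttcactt
region near EPO: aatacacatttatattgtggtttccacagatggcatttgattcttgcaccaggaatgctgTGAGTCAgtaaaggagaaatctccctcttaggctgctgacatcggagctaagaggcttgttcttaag
region near ARTN: ctttgaacttcTGAGTCAgtaatttccaa
DDB2: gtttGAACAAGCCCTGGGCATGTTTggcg

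The lists hold no read counts, so depth is described through the peaks. The lowest local background recovered from the lists was 1.90 and 3.43 fragments at 0 h and 2.19 and 3.13 at 1 h, and its mean did not separate the groups. The median peak stood 5.51- and 4.52-fold over its local background in the 0 h lists and 7.21- and 7.57-fold in the 1 h lists. Over the regions called in all 4 lists, the summit pileup was a median of 1.79-fold higher at 1 h. A global rise of the mark and a higher yield of the immunoprecipitation cannot be told apart from peak lists, so strength is compared below as rank within a list. The peak names of 0 h replicate 2 carry the ChIP number 1, as do those of 0 h replicate 1, followed by BR2, BR3 and the word input, and those of 1 h replicate 2 carry the number 3. Whether 0 h replicate 2 holds pooled reads, a pooled input or reads of replicate 1 was not tested, and if it shares reads, the 0 h group holds fewer than 2 independent libraries. Replicate pairs resembled each other far more than lists of different times. The variance of the summit pileups over that expected from counting was 0.887 for the 0 h pair and 1.68 for the 1 h pair, against 7.06 to 12.6 for the 4 pairs that cross times. The 0 h pair differed by less than the sampling noise over all regions, but by more at strong summits (1.46 over 2103 regions), and its summits lay a median of 58 bp apart. The 1 h pair lay 41 bp apart. These values cannot show whether reads are shared, since partial sharing would also leave some spread. The 0 h pair was kept as 2 replicates by label, and counting it as 1 is given with the rank calls.

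H3K27ac peaks became wider after 1 h while their number did not grow. The lists held 40683 and 43417 peaks at 0 h and 40091 and 39092 at 1 h. The median width was 788 and 785 bp at 0 h and 1110 and 1169 bp at 1 h, and the 2 groups did not overlap. The group means were 786.5 ± 2.12 bp and 1140 ± 41.7 bp (SD, n = 2), a ratio of 1.45. Peaks wider than 2000 bp made up 18.3% and 18.5% of the 0 h lists and 27.2% and 28.9% of the 1 h lists. The covered length was 51.2 ± 2.90 Mb at 0 h and 63.4 ± 1.10 Mb at 1 h (SD, n = 2). With 2 lists against 2, an exact permutation test cannot give a p-value below 0.33, so no test was run. The narrowest peaks measured 243 to 249 bp in all lists, and did not move with time. The stronger enrichment of the 1 h lists moved with the widths, and its part in them was not tested. The difference was 353 bp over all peaks and 217.5 bp over peaks whose −log10 q-value reached 5.

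**Figure D1:**
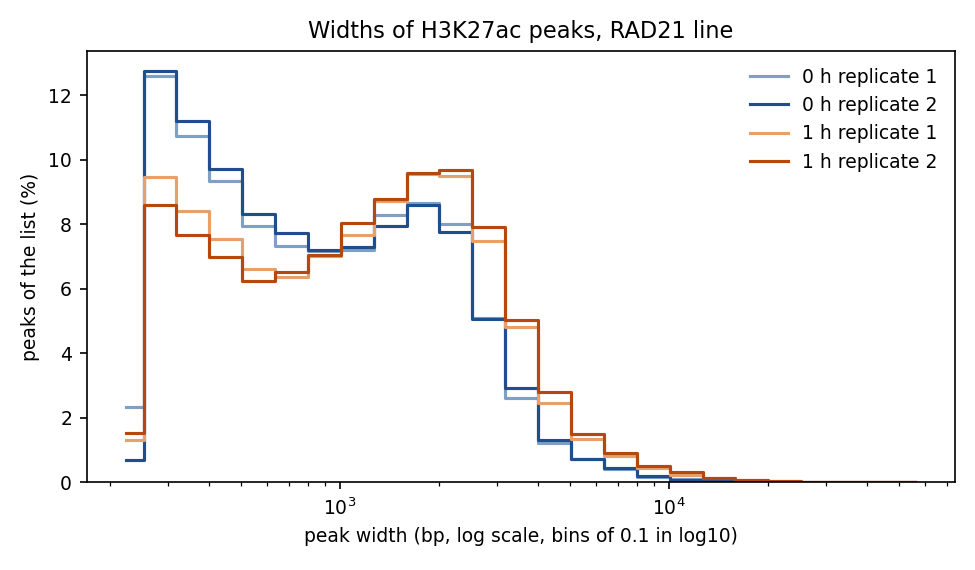
Width of H3K27ac peaks in the 4 lists of the RAD21 line. The x axis is the width in bp on a log scale and the y axis the percent of the list's peaks per bin, with 1 line per list. The 0 h lists, with medians of 788 and 785 bp, hold more narrow peaks than the 1 h lists, with medians of 1110 and 1169 bp.

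Most of the newly covered sequence lay within merged regions that were already marked. Outer flanks and gaps between the peaks of a region were not told apart. Bases covered by both 1 h lists and by neither 0 h list came to 9.84 Mb, and bases covered only at 0 h came to 1.84 Mb. Of the gained bases, 65.3% (6.42 Mb) lay inside regions called in all 4 lists and 24.2% (2.38 Mb) in regions of their own. Of the lost bases, 31.6% lay inside regions called in all 4 lists and 51.3% in regions of their own. Regions that later ranked higher were called over a median of 1886 and 1962 bp at 0 h and 2544 and 2646 bp at 1 h. Regions that ranked lower widened little, from 1826 and 1864 bp to 1910 and 1932 bp.

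After peaks of the 4 lists were merged where they overlapped, 63589 regions remained, of which 22799 were called in all 4 lists. Regions called in both 1 h lists and in neither 0 h list, termed gained, numbered 4303, which is 6.77% of the merged regions. Regions called in both 0 h lists and in neither 1 h list, termed lost, numbered 2672, or 4.2%. For comparison, 4892 to 9285 regions were called in 1 list alone. Gained and lost regions are calls of presence and carry no replicate test. Both sets were weak and narrow: gained regions had a median percentile of 32.7 and 31.5 by p-value within the 1 h lists and a median width of 848 bp, and lost regions 27.4 and 28.75 within the 0 h lists and 691 bp. The percentile is the position of a region's strongest peak among the peaks of its list.

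Gained regions were mostly distal and lay at sites where the parental line already carried H3K4me1. Introns held 52.9% of them, intergenic sequence 23.4%, exons 15.1% and promoters 8.575% (95% Wilson interval 7.78 to 9.45%, counting error only, as for all intervals here). A promoter was taken as 1000 bp upstream to 200 bp downstream of a transcription start site. Over all merged regions promoters made up 24.8%. Peaks of both WT 0 h H3K4me1 lists overlapped 89.8% of gained regions, against 64.5% of all merged regions. Among distal regions alone the share was 89.9% of gained regions and 94.7% of those called in all 4 lists. WT H3K27ac was called in both lists at 21.4% of them at 0 h, 29.0% at 1 h and 36.1% at 10 h, where all merged regions gave 37.4%, 37.55% and 48.5%. The WT lists differ in the form of their peak names between times, so these 3 shares are not a time course. Gained regions were poor in G and C, with a median GC content of 46.3% in the 300 bp around the summit against 54.3% over all regions. An AP-1 site lay in 17.1% of these windows (15.99 to 18.2%), against 11.2% of all regions. Among distal regions alone, 17.7% of gained and 20.3% of those called in all 4 lists held the site, so the share in gained regions was above that of lost ones and below that of distal regions marked throughout. The CTCF core AGGGGGC was present in 5.00% of gained regions and 9.25% of all regions.

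Of the gained distal regions with the highest percentiles, one within FBXL2 (chr3:33401038-33403189, intron), a gene for a subunit of a ubiquitin ligase, reached the 71.6th and 68.9th percentile at 1 h with folds of 17.7 and 24.7. The exonic region within ST3GAL3, a sialyltransferase gene, near ARTN (chr1:44386513-44388756) reached the 73.9th and 65.3rd percentile. An intron of MYO6, which encodes a motor that moves towards the minus end of actin filaments, held a region 3551 bp wide (chr6:76461261-76464811) at the 69.4th and 66.5th percentile with folds of 20.7 and 19.8. The intergenic region (chr7:100322981-100323997) 4890 bp from EPO, the gene of the hormone erythropoietin, reached the 66.25th and 66.2nd percentile. By the definition of gained, none of these regions had a peak in either 0 h list. All 4 carried WT H3K4me1 in both 0 h lists, and the MYO6 region had no WT H3K27ac peak at 0 h. Gained promoters were weaker: PRIM2, the large subunit of DNA primase (chr6:57178051-57179534), led them with percentiles of 65.1 and 58.4, ahead of NPIPB8, ENSG00000289281 and KRTAP2-3. NPIPB8 and KRTAP2-3 belong to families of near-identical copies, and reads may have been split between them.

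Lost regions were of another kind. They were also distal, with 8.795% at promoters (7.78 to 9.93%), but exons held 27.6% of them, against 17.7% of all merged regions. H3K4me1 of WT at 0 h covered 33.0% in both lists (31.2 to 34.8%), well below the share of gained regions, and 60.7% had no H3K4me1 peak in either list. Their median GC content was 58.7%. An AP-1 site lay in 8.61% (7.60 to 9.73%) and the CTCF core in 11.7% (10.5 to 12.95%). The 1621 lost regions without H3K4me1 had a median GC content of 60.3% and an AP-1 site in 5.49%, and the 881 with H3K4me1 in both lists had 54.3% and 13.7%. Lost regions were also called less often in WT H3K27ac, in both lists at 10.1% at 0 h, 5.65% at 1 h and 29.5% at 10 h, where gained regions gave the shares above. The intervals of gained and lost regions did not overlap for H3K4me1, the AP-1 site or the CTCF core.

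**Figure D2:**
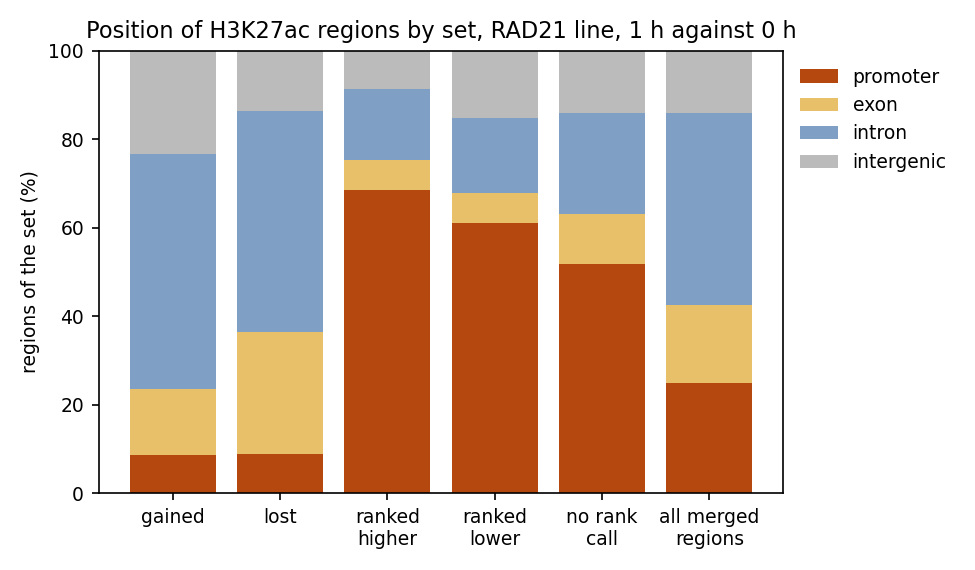
Position of regions relative to genes, as percent of the regions of each set. Bars are stacked by promoter, exon, intron and intergenic sequence. Promoters make up 8.575% of gained and 8.795% of lost regions but 68.6% and 61.1% of the regions that ranked higher and lower.

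**Figure D3:**
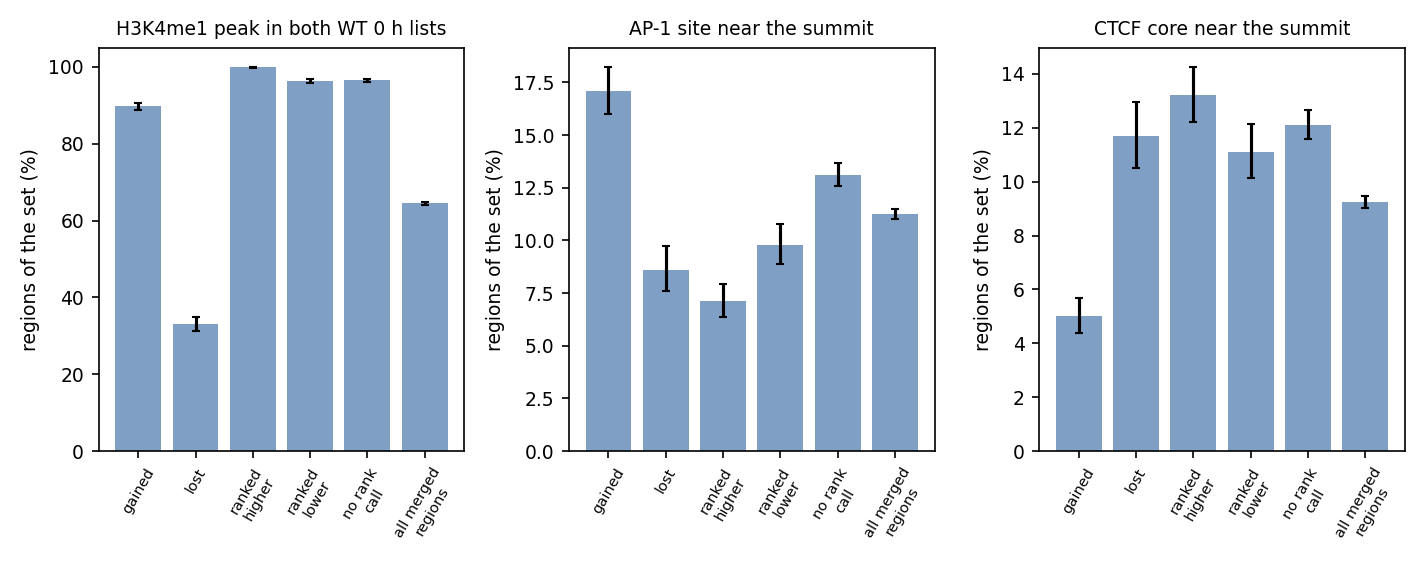
Percent of each set with an H3K4me1 peak in both WT 0 h lists (left), an AP-1 site (middle) and the CTCF core (right), the last 2 within 300 bp centred on the strongest summit. Error bars are 95% Wilson intervals for counting error. Gained regions hold H3K4me1 in 89.8% and lost regions in 33.0%.

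The strongest lost promoters were those of CCDC175, C7orf57, CATIP, an actin regulator of motile cilia, and the shared promoter of ENSG00000273167 and SPATA13. They ranked between the 65.15th and 68.2nd percentile in the 0 h lists. Of the distal ones, an intron of C7orf50 (chr7:1156449-1157589) stood at the 76.2nd and 79.8th percentile with folds of 15.9 and 15.0. The region within SLC43A1, a gene for an amino acid transporter (chr11:57260740-57262252, exon), stood at the 77.2nd and 77.7th with folds of 19.6 and 16.3. A region 66685 bp from QRFPR (chr4:122368858-122370607) stood at the 77.45th and 74.55th. The fourth, near ANKRD30BL (chr2:133034613-133034940), was 328 bp wide with folds of only 2.88 and 2.75 on a local background of 78.8 and 121 fragments. The C7orf50 and SLC43A1 regions were called in both WT H3K27ac lists at 1 h as well as at 0 h.

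Rank changes were tested over the 22799 regions called in all 4 lists, with limma on normal scores of the rank by −log10 p-value. A change of 1 is 1 SD of the ranking within a list. Normal scores stretch the ends of a list, so a rank change is not a size of gain. RPS19 and CCNE2 had similar rank changes, given below. Relative to the median region, their summit pileups rose 1.28- and 3.90-fold. At an adjusted p-value under 0.05 (limma with Benjamini-Hochberg adjustment), 4276 regions (18.8%) ranked higher and 3769 (16.5%) lower at 1 h. Ranking by fold gave 2209 and 2346, and counting the 0 h lists as 1 gave 4495 and 3562. Regions of both directions sat mostly at promoters, which made up 68.6% of those ranked higher, 61.1% of those ranked lower and 51.7% of those with no call. Of 12865 promoter regions, 22.8% ranked higher and 17.9% lower. Regions that ranked higher were wide, with a median merged width of 2809 bp against 2215 bp for those ranked lower and 1975 bp with no call. Their median percentile went from 77.2 and 78.6 to 85.3 and 85.4, and that of regions ranked lower from 85.2 and 86.6 to 74.3 and 73.0. WT H3K4me1 at 0 h covered 99.95% and 96.4% of them in both lists, against 96.5% of regions with no call.

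Base composition moved with the change, in opposite ways at promoters and elsewhere. At promoters, windows above 70% GC ranked higher in 28.1% and lower in 12.3% of 5558 regions, and windows of 40 to 50% GC in 12.3% and 27.9% of 731. At distal regions, windows up to 40% GC ranked higher in 22.3% and lower in 14.2% of 1518, and windows of 60 to 70% GC in 5.29% and 16.9% of 1531. Across regions, Spearman's rho between GC content and rank change was 0.182 at promoters (n = 12865) and −0.198 elsewhere (n = 9934). Regions share their libraries and are not independent replicates. The part of base composition in the calls was not tested.

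Motifs near the summit differed between the directions. A GC box (GGGCGG), bound by SP1, lay in 65.85% of promoters that ranked higher and 53.9% of those ranked lower, against 60.1% of promoters called in all 4 lists. The cAMP response element TGACGTCA, bound by CREB and ATF dimers, was rare, in 1.61% (1.17 to 2.21%) of promoters ranked lower and 0.136% (0.0530 to 0.35%) of those ranked higher. The ATF4 element TGATGCAA, whose C was chosen after values of the broader TGATGNAA had been seen, followed the same order. It lay in 2.18% (1.55 to 3.06%) of distal regions ranked lower and 0.149% of those ranked higher, and in 0.918% of all distal regions. The broader TGATGNAA lay in 6.07%, 3.65% and 3.86% of these. Over whole regions TGATGCAA occurred 35.9 times per Mb in those ranked lower, 59.9 in lost regions, 18.65 in those ranked higher and 25.4 over all merged regions. The p53 response element (a pair of 10-base half-sites with a spacer of up to 13 bases) was found in 0.491% of regions ranked higher and 0.663% of those ranked lower, and the intervals overlapped. A match describes letters and not binding.

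The promoters with the smallest p-values among those ranked higher belonged to AEN, FANCA, PNPLA2 and the pair BOLA2B and SLX1A. AEN encodes an exonuclease that p53 induces in apoptosis. Its region (chr15:89163765-89168952) stood at the 95.9th and 93.6th percentile at 0 h and at the 99.97th in both 1 h lists, with folds of 65.1 and 38.9 against 179.9 and 281.5. Its rank change was 1.96 ± 0.132 (SE, limma, adjusted p = 1.68e-06). FANCA, part of the core complex that repairs DNA crosslinks, moved from the 92.1st and 89.4th to the 99.7th and 99.6th percentile (1.56 ± 0.107, limma adjusted p = 1.74e-06). PNPLA2, the lipase that starts the breakdown of stored triglycerides, moved from 90.9 and 91.4 to 99.4 and 99.5 (1.37 ± 0.0940). The groups did not overlap at any of these promoters, but they were chosen by p-value, so this adds no support. BOLA2B and SLX1A (1.325 ± 0.0909) lie in a duplicated stretch with near-identical copies, so their reads may belong to another copy.

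Some distal regions that ranked higher stood in the lower part of the 0 h lists. An intronic region of MYO16 (chr13:109805921-109810407) rose from the 38.7th and 32.8th to the 75.8th and 74.4th percentile, with folds of 4.08 and 3.07 against 23.3 and 35.6 (1.62 ± 0.160, limma adjusted p = 1.6e-05). A region over an exon of MAEA, a subunit of a ubiquitin ligase, was called over 1635 and 2914 bp at 0 h and 6472 and 8442 bp at 1 h (chr4:1315491-1324477; 1.22 ± 0.129). The other two lay near GAS6, a ligand of receptor tyrosine kinases (0.988 ± 0.103), and in an intron of ERICH1 near TDRP (0.968 ± 0.0970).

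The protein-coding promoter with the smallest p-value among those ranked lower was that of CHAC1, which encodes a glutathione-degrading enzyme and is a target of ATF4. Its region (chr15:41244239-41246727) stood at the 98.4th and 98.45th percentile at 0 h and at the 72.7th and 75.3rd at 1 h, with folds of 89.45 and 77.7 against 25.1 and 36.25, while the median fold of the lists was higher at 1 h. The rank change was −1.77 ± 0.0870 (SE, limma, adjusted p = 9.53e-07). WDR35, a subunit of intraflagellar transport in cilia, fell from the 98.1st and 97.8th to the 74.6th and 69.7th percentile (−1.74 ± 0.0926). GET1, part of the receptor that inserts tail-anchored membrane proteins, fell from 98.6 and 98.6 to 79.35 and 77.2 (−1.64 ± 0.0844). At all 3 promoters the fold also fell at 1 h.

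The 4 leading distal regions among those ranked lower also left the top of the lists. The region within LONRF2 (chr2:100906083-100910452, exon), which holds 2 copies of the ATF4 element, fell from the 97.05th and 97.0th to the 74.7th and 75.4th percentile (−1.43 ± 0.0831, limma adjusted p = 9.7e-07). The intergenic region near DNASE2B (chr1:84897933-84900990), which holds 1, fell from 97.3 and 97.4 to 78.0 and 73.8 (−1.45 ± 0.0882). A region over an exon of REM2, a small GTPase gene, fell from 99.6 and 99.3 to 88.35 and 86.65 (−1.56 ± 0.101), and one near SPATA31A6, in a duplicated part of chromosome 9, by 1.54 ± 0.0885. The regions whose sequences are shown were chosen after their values were seen.

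**Figure D4:**
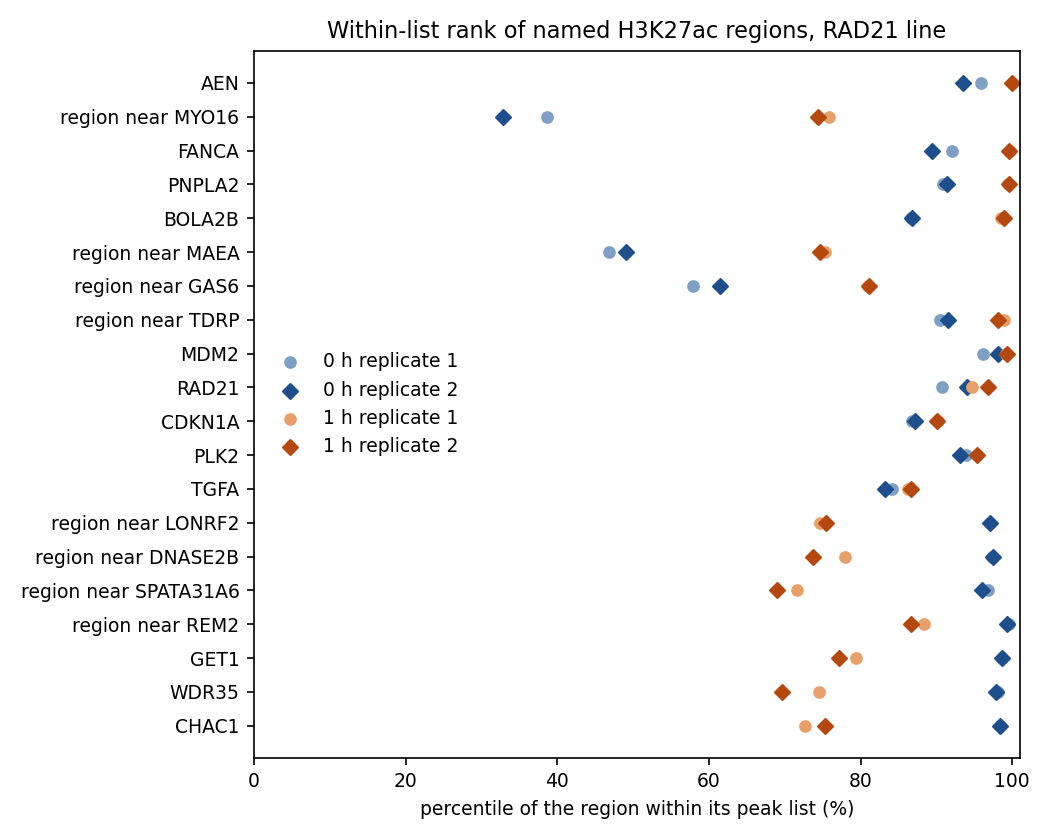
Percentile by p-value of 20 named regions within each of the 4 peak lists (x axis, percent), ordered by rank change. Circles are replicate 1 and diamonds replicate 2, blue at 0 h and orange at 1 h. AEN moves to the top of the 1 h lists, and CHAC1 falls from the 98.4th and 98.45th to the 72.7th and 75.3rd percentile.

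Promoters were then grouped by function, and each list is set beside the 22.8% and 17.9% of all promoter regions that ranked higher and lower and their median change of 0.0550. No list was tested as a set. Some regions also hold the promoter of a neighbour, such as CETN2 beside NSDHL, NDUFAF6 beside CCNE2, TPRA1 beside MCM2, TYMP beside SCO2 and BTBD19 beside PLK3, and their values cannot be assigned to 1 gene. The integrated stress response, the program through which ATF4 restores amino acid supply, had the lowest median, −0.365 over 31 promoter regions, with 17 ranked lower and 4 higher. Besides CHAC1, the largest drops were at ASNS, asparagine synthetase, from the 96.9th and 96.8th to the 75.15th and 72.4th percentile (−1.46 ± 0.0846), at the broad region over SLC7A5, a leucine transporter (−1.23 ± 0.0922), and at the promoter that AARS1, alanyl-tRNA synthetase, shares with DDX19B (−1.12 ± 0.0989). The other promoters shown above also ranked lower: PSAT1, an enzyme of serine synthesis (−0.864 ± 0.0927), TRIB3, a pseudokinase that restrains ATF4 (−0.62 ± 0.0841), and SESN2, a leucine sensor (−0.349 ± 0.0974). SESN2 was counted among the p53 targets and not in this list. SHMT2, a mitochondrial enzyme of serine breakdown, ranked higher (0.45 ± 0.0850), as did a second region of SLC7A5 just upstream (0.344 ± 0.0869), whose call was lost without 1 h replicate 2 (limma adjusted p = 0.0567) and reversed in the fit over 10 lists. MTHFD2, which works beside SHMT2, had a weak gained promoter region at the 28.1st and 16.6th percentile. The ATF4 element was found in 13 of the 17 regions ranked lower and in 8 of the other 14, and in 7.99% and 5.00% of promoter regions in general.

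Of immediate early genes, which growth signals switch on within minutes, and AP-1 genes, 14 of 33 regions ranked lower, 2 higher and 17 had no call, with a median of −0.268. FOS fell from the 99.6th and 99.5th to the 95.3rd and 94.3rd percentile (−1.08 ± 0.103). DUSP6, a phosphatase that restrains ERK (−0.9715 ± 0.107), the transcription factor gene EGR3 (−0.954 ± 0.0862) and JUN (−0.9495 ± 0.0996) also ranked lower. The 2 that ranked higher were MAFF, a small MAF factor (0.937 ± 0.125), and FOSL1 (0.611 ± 0.142), which shares its region with CCDC85B and FIBP and whose call was lost without 0 h replicate 1 (limma adjusted p = 0.0635), and the log2 pileup scale gave a change of 0.0286 (limma adjusted p = 0.891). Genes of cholesterol synthesis had 9 of 25 regions ranked lower and 2 higher (median −0.114). The largest drop in rank was at NSDHL, a sterol dehydrogenase (−1.13 ± 0.0848). Of the intestinal epithelial markers, 5 of 12 regions ranked lower, among them KRT8 (−0.788 ± 0.0950), EPCAM (−0.686 ± 0.1145) and CDH1 (−0.4235 ± 0.0986), and 1 higher, KLF5 (list median −0.237). The KLF5 call was lost without either 0 h list or 1 h replicate 2 (limma adjusted p = 0.0504 to 0.13). Wnt targets and intestinal stem genes had 4 of 12 lower (median −0.0444), with AXIN2, a negative regulator of the pathway, at −0.5405 ± 0.0920, and 2 ranked higher only when 0 h replicate 1 was left out.

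p53 targets had 16 of 44 regions ranked higher, 8 lower and a median of 0.207, and no gained or lost region. After AEN, the largest rises in rank were at PPM1D, a phosphatase that turns the p53 response off (1.13 ± 0.107), and at DDB2, which recognises ultraviolet damage (1.07 ± 0.0827). PIDD1, a death-domain protein that shares its region with RPLP2, followed (0.866 ± 0.102). Summit pileup gave another order. Relative to the median region, it rose 2.51-fold at DDB2, 2.34-fold at AEN, 1.80-fold at PPM1D and 1.42-fold at PIDD1. DDB2 went from the 83.9th and 84.9th to the 97.2nd and 97.1st percentile. Among the 8 that ranked lower were SESN2, given above, PLK3, a stress kinase (−0.668 ± 0.106), and SCO2, a copper chaperone for cytochrome oxidase (−0.549 ± 0.105). Another was BBC3, the killer protein PUMA (−0.413 ± 0.0964), whose call was lost when ranked by fold (limma adjusted p = 0.0635). The SCO2 and BBC3 calls were lost in the fit over 10 lists without the peak name (limma adjusted p = 0.104 and 0.125). The list of distal p53 targets was chosen by the study on WT libraries of this series. Only genes that its text names are included here, not its full set. At promoters of its distal targets, the study reports that RAD21 degradation held back the early H3K27ac gain relative to control genes. That comparison used read signal and not ranks within a list. In the list of named genes, 13 of 29 ranked higher and 3 lower, with a median of 0.223. DDIT4, an inhibitor of mTORC1 that is also in the integrated stress response list, ranked lower (−0.6395 ± 0.0869). KMT2E and PCM1 also ranked lower, with summit pileups 0.613- and 0.740-fold relative to the median region. The KMT2E call was lost in the fit over 10 lists without the peak name (limma adjusted p = 0.0517). The PCM1 call was lost when ranked by fold (limma adjusted p = 0.0764). PPM1D led the listed distal targets, ahead of the cell cycle factor gene E2F2 (0.585 ± 0.0889) and BRD7, a subunit of a chromatin remodeller (0.545 ± 0.0884). Without 1 h replicate 2, 8 of them ranked higher.

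DNA replication genes had the highest median, 0.521, with 23 of 36 regions ranked higher and 3 lower. MCMBP, a partner of the MCM helicase, moved from the 96.3rd and 96.2nd to the 99.9th in both lists (1.43 ± 0.122). CCNE2, an S phase cyclin, rose from the 47.3rd and 53.2nd to the 76.8th and 77.25th percentile (1.21 ± 0.122), the helicase subunit gene MCM2 by 1.05 ± 0.118 and E2F1 by 0.989 ± 0.0977. RFC2, a subunit of the clamp loader, ranked lower (−0.76 ± 0.124). Fanconi and homologous recombination genes had 11 of 24 higher and 4 lower (median 0.197), where FANCA stood against the promoter that BRCA1 and NBR1 share (−1.31 ± 0.119). Genes of G2/M were even, with 5 higher and 5 lower of 29 (median 0.1055).

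Heat shock genes had 8 of 16 regions ranked higher and 1 lower (median 0.345), led by HSF1, their master regulator (1.12 ± 0.118), whose region also holds the promoter of BOP1. That call was lost when regions were ranked by fold (limma adjusted p = 0.1735). Writers and readers of acetylation had 7 of 17 higher (median 0.276), among them CDK9, the kinase that releases paused polymerase (0.799 ± 0.0856), and the acetyltransferase EP300 (0.5715 ± 0.108). The EP300 call was also lost when ranked by fold (limma adjusted p = 0.158), where 3 of the 17 ranked higher. Cytosolic ribosomal proteins had 33 of 79 higher and 9 lower (median 0.162), from RPS19 (1.22 ± 0.161) and RPL14 (1.19 ± 0.0853) to RPL36 (−1.20 ± 0.101). Cohesin and CTCF genes had 5 of 15 higher and 2 lower (median 0.15), with SMC3, a ring subunit, at 0.847 ± 0.117 and the loader NIPBL at 0.393 ± 0.0849. The 2 ranked lower, the acetyltransferases ESCO1 and ESCO2, both lost their calls without 0 h replicate 2 (limma adjusted p = 0.0848 and 0.0696), ESCO1 also without 1 h replicate 2 (0.051) and ESCO2 without 1 h replicate 1 (0.0695). NRF2 genes had 7 of 18 higher and 2 lower (median 0.16), and the count ranked higher was 4 without either 0 h list or 1 h replicate 2. The remaining lists held 12 to 22 tested regions each. Interferon genes had 5 higher and 4 lower of 22 (median −0.0629) and NF-kB targets 5 and 2 of 12 (0.0178). Notch genes had 4 of 12 higher (0.227), TGF-beta genes 2 higher and 4 lower of 13 (0.0225), and laminin and hemidesmosome genes 2 and 2 of 16 (0.0292).

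**Figure D5:**
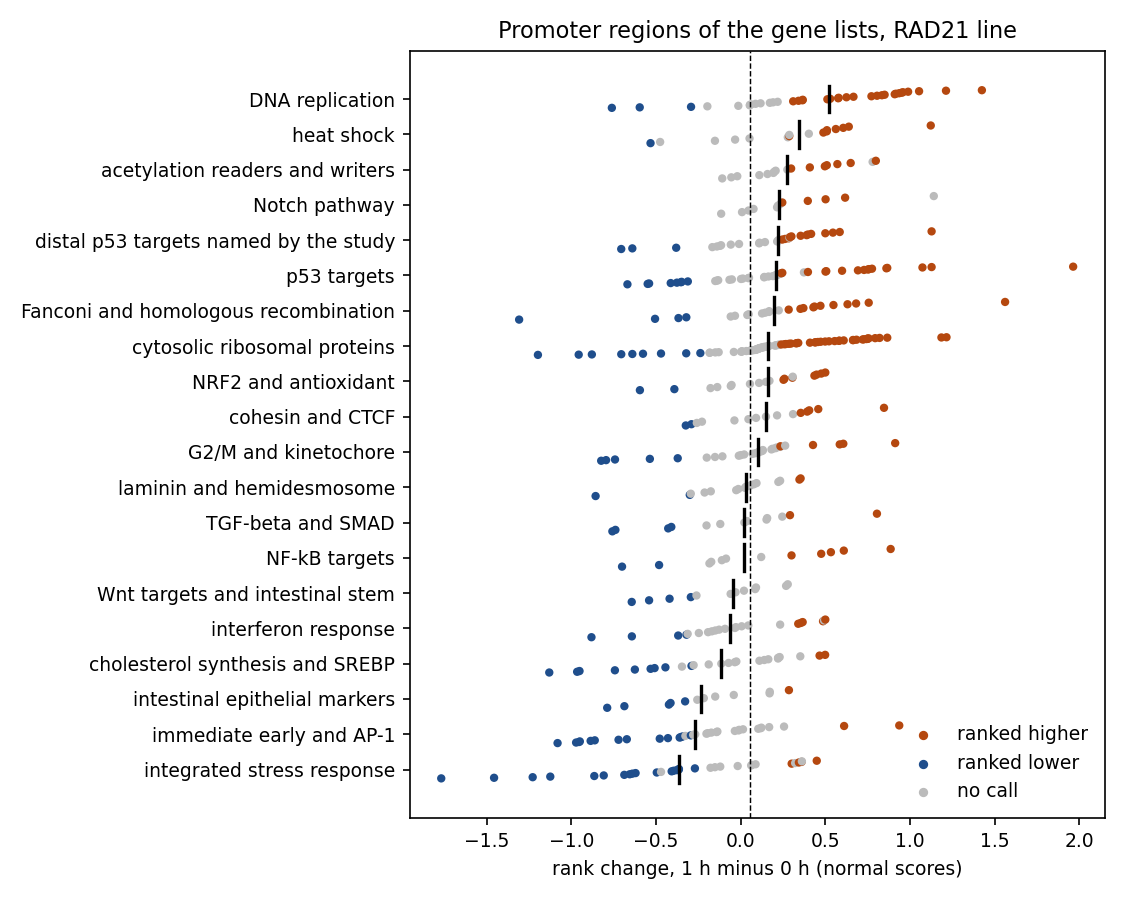
Rank change of promoter regions (x axis, normal scores, 1 h minus 0 h) for 20 gene lists, ordered by median (black bar). Each point is a region, orange where it ranked higher and blue where it ranked lower (limma, adjusted p under 0.05). The dashed line is the median of all promoter regions, 0.0550. DNA replication lies highest, at 0.521, and the integrated stress response lowest, at −0.365.

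Promoters central to the study were read whatever their values. CDKN1A, the inhibitor of cyclin-dependent kinases that p53 induces in growth arrest, moved from the 86.7th and 87.2nd to the 90.2nd and 90.1st percentile (0.24 ± 0.0822, limma adjusted p = 0.0389). Its region was called over 5881 and 6044 bp at 0 h and 8536 and 8428 bp at 1 h. The call was lost without any one list (limma adjusted p = 0.0833 to 0.121), with the replicate block (0.0528) and when ranked by fold (0.0904). MDM2, the gene of HDM2, moved from 96.1 and 98.1 to 99.2 and 99.3 (0.599 ± 0.1205, limma adjusted p = 0.00234), and its call was lost on the log2 pileup scale (limma adjusted p = 0.118). RAD21 itself stood at 90.8 and 94.1 at 0 h and at 94.6 and 96.75 at 1 h (0.355 ± 0.112, limma adjusted p = 0.027), and the call was lost without 0 h replicate 1 (0.184) or 1 h replicate 2 (0.144). Its mark at the promoter says nothing of the protein. PLK2, a p53-induced kinase, with 0.223 ± 0.0876, and TGFA, a ligand of the EGF receptor, with 0.1905 ± 0.0864, did not pass the test (limma adjusted p = 0.0667 and 0.106).

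Whether distal sets lay near promoters of the same direction was counted through the nearest protein-coding start within 100 kb. Of the gained distal regions with a neighbour promoter called in all 4 lists, 31.4% had one that ranked higher and 15.5% one that ranked lower. Of lost distal regions the shares were 38.9% and 13.9%, of distal regions with no rank call 30.1% and 16.1%. Distal regions that ranked lower had 23.5% and 19.6%, and those that ranked higher 30.1% and 17.2%. Gained regions lay a median of 9771 bp and lost regions 11020 bp from the nearest region called in all 4 lists, and 36.65% and 28.9% of them lay within 5 kb of one.

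The 1 h change was set against that in WT with 1 limma fit over all 10 H3K27ac lists of the series, in which the form of the peak name (with or without the word input) was a term. Both WT 0 h lists and 1 WT 1 h list have the form without input, so the WT change rests mainly on the 1 h list that shares it, and a batch effect in WT cannot be told apart in full. Of 18757 regions called in all 10 lists, the change was higher in the RAD21 line at 3241 (17.3%) and lower at 2794 (14.9%). Of promoter regions in the integrated stress response list, 12 of 29 were lower in the RAD21 line than in WT and 4 higher, with a WT median of −0.0709. Ribosomal protein regions were higher in 30 of 79 and lower in 7 (WT median −0.0861), writers and readers of acetylation in 9 and 1 of 17 (WT −0.219), and heat shock regions in 9 and 1 of 14 (WT −0.0439). In the next lists the WT median had the same sign as that of the RAD21 line. DNA replication regions were higher in 9 and lower in 8 of 35 (WT median 0.3595). Immediate early and AP-1 regions were higher in 8 and lower in 7 of 33 (WT −0.241). Fanconi and homologous recombination regions were higher in 2 and lower in 6 of 24 (WT 0.402). Cholesterol synthesis regions were higher in 4 and lower in 8 of 25 (WT −0.117). The p53 targets were higher in 12 and lower in 4 of 44, with a WT median of 0.0663. The distal p53 targets named by the study were higher in 6 and lower in 4 of 29, with a WT median of 0.128. For CDKN1A, MDM2 and TGFA the change differed from that in WT by 0.143 ± 0.160, 0.0277 ± 0.201 and 0.0968 ± 0.151, which did not pass the test (limma adjusted p = 0.531, 0.934 and 0.666).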

How the data were processed

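Per the study's methods, the authors trimmed paired-end reads with Trim Galore 0.6.6, mapped them to GRCh37 with Bowtie2 2.3.2, removed low-quality, blacklisted and duplicate reads, and called peaks per library with MACS2 2.2.7.1 against an input, narrow for H3K27ac and broad for H3K4me1. The deposited lists hold, per peak, its fold (a ratio over local background, by the authors) and its −log10 p-value and q-value, also deposited by the authors. H3K4me1 lists of WT served for overlap only. Summit pileups were recovered from fold and p-value as the whole numbers that reproduced each −log10 p-value to within 0.001 of its size. Peaks overlapping by 1 bp were merged. Rank changes were fitted with limma 3.58.1 (lmFit and eBayes, no covariate), with Benjamini-Hochberg adjustment. The fit was tested on simulated data. Over repeated draws the mean share of false calls lay slightly above the threshold of 0.05. The draws took their spread from limma's own fit, with 200 changed regions, and held no shared reads and no shift between libraries. The simulation therefore cannot give the share of false calls in the real lists, and adjusted p-values from 2 lists against 2 are approximate at best. Motifs were searched on both strands. Same-numbered replicates did not deviate together (correlation −0.0282). Named regions were the 4 leading promoters and 4 leading distal regions of each set, the leading called regions of each list and 5 fixed promoters, of which some are not reported here. Members, lists and tests were chosen with earlier results of these data known. Replicates are separate samples by label. The p-values set a change against the spread between replicates, which limma moderates over all tested regions. In the fit over the 4 lists that prior had 10.1 degrees of freedom. If the 0 h lists share reads, the spread is understated.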

Additional observations from a re-analysis of the deposited data

Results flagged for a closer look

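Results are given here where the change after 1 h differed between the RAD21 line and WT by a test of the difference itself, in the limma fit over 10 lists described above. In all, 6035 of 18757 regions differed at an adjusted p-value under 0.05. The promoter of RAD21 changed by 0.789 ± 0.175 more in the RAD21 line than in WT (limma adjusted p = 0.0014), where the WT change was −0.414. That of PLK2 changed by 0.702 ± 0.145 more (limma adjusted p = 0.000713), where the WT change was −0.467. The study, by contrast, reports a gain of H3K27ac at the PLK2 promoter of WT cells after p53 activation. It used read signal and not ranks within a list, and the WT changes here rest mainly on 1 list at 1 h. The study also reports that RAD21 degradation impeded the rise of PLK2 transcription, measured on nascent RNA and not on H3K27ac. In the fit of the RAD21 line alone, the PLK2 promoter did not pass the test, as given above. Its difference from WT thus rests more on the WT change of −0.467 than on a rise in the RAD21 line.

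The regions named for the smallest p-values in the RAD21 line were chosen for that change, so a difference from WT is in part set by the choice. Among those ranked higher, the difference was 0.86 at AEN, 0.482 at BOLA2B and SLX1A, 1.45 at PNPLA2, 1.42 in MYO16, 0.636 near TDRP and 0.876 near GAS6, while FANCA (0.384) and the MAEA region (−0.215) did not pass (limma adjusted p = 0.0671 and 0.595). Among those ranked lower, it was −1.28 at CHAC1, −2.35 at GET1, −3.03 at WDR35, −1.84 near SPATA31A6, −2.42 in LONRF2, −2.47 near DNASE2B and −1.83 in REM2. In WT the change was positive at GET1 (0.597), WDR35 (1.13), LONRF2 (0.864) and DNASE2B (0.903), and negative at CHAC1 (−0.63). What part the form of the peak name plays in these differences beyond its term in the fit was not tested.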

How the results depend on the processing

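Gained regions numbered 2030 and lost regions 425 when a peak needed a −log10 q-value of at least 5, and bases lost came to 0.767 Mb. Requiring that peaks cover the larger share of a region gave 6541 gained regions. Leaving out 1 list loosens the definition and gave 5532 to 9710 gained and 3394 to 11957 lost regions, and 12.7 to 16.8 Mb gained and 2.53 to 7.92 Mb lost. The width difference was 217.5 bp at the q-value limit and 345.8 bp over the 30000 strongest peaks, and 323.5 to 382.5 bp without 1 list. Promoter shares of gained, lost, higher and lower regions were 4.14, 3.26, 63.1 and 50.8% with protein-coding promoters, and 20.85, 19.1, 71.75 and 65.5% with 2500 bp on both sides. AP-1 sites lay in 46.1% of gained and 16.5% of lost windows of 600 bp. Ranking by fold gave 2209 higher and 2346 lower regions, of which 99.7% and 99.4% were also called by p-value, and 93 and 63 list regions in place of 148 and 96. The fit over 10 lists without the peak name gave 2693 and 2510, and with it 4261 and 3579. Without 1 list, counts were 2906 to 4570 higher and 3023 to 3933 lower. The replicate block gave 4302 and 3718, since the numbers do not pair the samples, and among named regions it changed the CDKN1A call alone. The log2 pileup scale, added after seeing the data, gave 5400 and 5460, and counting the 0 h lists as 1 gave 4495 and 3562. Of 137 named calls, 29 were lost without some list and 46 under another alternative. The upstream SLC7A5 region reversed in the fit over 10 lists (−0.481), since both SLC7A5 regions merge into 1 there.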
